A study of Chlorocebus aethiops with 8 samples.

Results

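DExD/H-box RNA helicases were followed through a knockdown of a member of their own family, RNA helicase A (RHA), the product of DHX9. The members were all probe sets whose only annotated gene symbol began with DDX or DHX. That rule found 39 of the 14133 genes that had a probe set with a single symbol, and they were read by 78 of the 52865 probe sets of the array. Of these, 62 probe sets for 38 genes belonged to the brighter 50% of the probe sets that are not controls (mean intensity above 19.9), in which 26383 probe sets were tested, those with a single symbol reading 10106 genes. The gene left out by this limit was DDX53, whose intensity lay between 6.29 and 8.61 on the 8 arrays. A gene with several tested probe sets is represented below by its brightest, and counts are given both over the 62 probe sets and over the 38 genes.

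The cells were COS cells, a fibroblast-like kidney line of the African green monkey that carries a viral large T antigen. RNA was read on arrays designed for the rhesus macaque, a related species. There were 4 groups of 2 arrays each: polysomal RNA of cells given RHA siRNA, polysomal RNA of cells given scrambled control siRNA, cytoplasmic RNA under RHA siRNA and cytoplasmic RNA under control siRNA. Every group was transfected with siRNA at 0.5 nM on 7 plates of 100 mm, kept 4 h without serum and 24 h in 10% serum, and transfected again 24 h after a split, 24 h before harvest. The RHA siRNAs were aimed at human coding nucleotides 2701-2721 and 2784-2803. For each array 25 ng of RNA was amplified and biotin-labelled. Whether replicates were separate cultures is not given, and p-values therefore measure the spread between arrays, which may be technical.

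Helicases of this family couple ATP hydrolysis to the unwinding of short RNA duplexes or to the removal of proteins from RNA. The DEAD-box branch, with most DDX members, pries local duplexes apart, and the DEAH-box branch, with most DHX members, moves along a strand. Different members serve pre-mRNA splicing, ribosome assembly in the nucleolus, mRNA export, translation, decay and the sensing of foreign RNA. RHA itself has double-stranded RNA binding domains and is known to aid the translation of selected mRNAs with structured leaders. The siRNA effect below is the log2 ratio of RHA over control siRNA, and polysome loading is the log2 ratio of polysomal over cytoplasmic RNA. The loading change is the siRNA effect in polysomal RNA minus that in cytoplasmic RNA.

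The arrays fell into the 2 sets that the replicate numbers give, and set 2 differed from set 1 at 51.3% of all tested probe sets (limma, adjusted p under 0.05). Among the members 35 of 62 differed, 12 of them higher in set 2, against 28.9% of all probe sets higher in set 2. Most ratios are therefore also given within set 1 and within set 2, in that order in the brackets. In set 1 the cytoplasmic control array was least like the rest, with a median Pearson's r of 0.949 across probe sets to the others of its set, against 0.967 to 0.980 for the other 7 arrays. The excess of 3' over 5' signal on the control transcripts, a sign of RNA length, was 4.09 (log2) on that array, against 2.54 to 4.15 on the others. Array medians of intensity were 19.3 to 20.8. The upper quartile was 56.4 on the cytoplasmic control array of set 1, against 60.6 to 77.8 on the others. On every array the median log2 intensity of the members lay above that of all tested probe sets, by 0.56 to 1.38. Shares and medians over all probe sets and all genes are not matched to the members for intensity. Markers of kidney epithelium were above the limit for 6 of 9 genes (AQP1 had a median intensity of 1267, EPCAM 354), and of fibroblasts for 8 of 9 (VIM 4593, FN1 668). The epithelial genes CDH1, PAX2 and UMOD were under the limit. Of 3 annotated leukocyte genes CD68 (132) and LYZ (56.9) were above it and PTPRC (9.06) below.

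DHX9 was lower under RHA siRNA in all 4 within-set comparisons. It was read by a single tested probe set, MmunewRS.268.1.S1_s_at, whose suffix marks probes shared between transcripts. In polysomal RNA its intensity was 97.2 and 269 in RHA siRNA sets 1 and 2, against 359 and 477 in control sets 1 and 2. In cytoplasmic RNA it was 130 and 254 under RHA siRNA, against 244 and 342 under control siRNA. The polysomal groups did not overlap, while in the cytoplasm the RHA array of set 2 lay above the control array of set 1. In bulk RNA a partial loss in every cell and a fuller loss in only some cells cannot be told apart.

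The mean log2 level of DHX9 was 7.34 ± 1.04 in RHA polysomes and 8.69 ± 0.29 in control polysomes (SD, n = 2 each). In cytoplasmic RNA it was 7.51 ± 0.68 under RHA siRNA and 8.17 ± 0.34 under control siRNA (SD, n = 2 each). The siRNA effect was -1.36 in polysomal RNA (-1.89 in set 1, -0.83 in set 2), or 39.0% of the control level. In cytoplasmic RNA it was -0.67 (-0.91 and -0.43), or 62.9% of the control level, and over both fractions -1.01 with an SE of 0.42, or 49.5%. On leaving out RHA array 1 the effect was -0.62 in polysomal RNA and -0.19 in cytoplasmic RNA, and on leaving out RHA array 2 it was -2.09 and -1.15. Leaving out control array 2 gave -0.42 in cytoplasmic RNA, and leaving out control array 1 with the set as a block gave -0.44. Over both fractions the effect was -0.65 without RHA array 1 of the polysomes. With all arrays DHX9 had the lowest value among the 38 genes in each of the 3 comparisons. The next lowest were DDX41 at -0.87 in polysomal RNA, DDX55 at -0.56 in cytoplasmic RNA and DDX55 at -0.38 over both. Of all tested probe sets 0.0644% were at or below DHX9 in polysomal RNA, 4.80% in cytoplasmic RNA and 0.311% over both.

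DHX9 did not pass the test across all probe sets in any of these comparisons, with limma's adjusted p at 1.00 in each. Over both fractions limma's unadjusted p was 0.0493, and with the set as a block 0.00159 (adjusted p 0.162). With the block, and leaving out control array 2 of the cytoplasm, the effect over both fractions was -1.13 and passed (limma, adjusted p 0.0337). In that setting limma called 4 member probe sets, DHX9 below 0 and DHX15 and 2 of DDX3X above 0, against 3.62% of all probe sets. An exact permutation test of the siRNA label within each set and fraction gave p = 0.125, two-sided, the smallest value that its 16 arrangements allow. Any probe set with 4 differences of one sign gets this value, and 8.99% of all probe sets were below 0 in all 4. The test therefore adds nothing to the 4 shared signs, and it pairs arrays by set, which the labels do not state. The other DHX9 probe sets were dim and not tested. A probe set called A in the plot of DHX9 intensities gave 13.2 and 31.3 in RHA polysomes against 21.4 and 29.4 in control polysomes, and 9.87 and 15.4 in RHA cytoplasm against 16.3 and 38.8 in control cytoplasm. Probe set B had 11.8 and 25.5 in RHA polysomes against 21.5 and 25.8 in control polysomes, and 11.3 and 27.2 in RHA cytoplasm against 14.9 and 26.7 in control cytoplasm. In set 1 both were lower under RHA siRNA in both fractions. Probe set C, annotated to another gene ID of the same symbol, was between 13.7 and 21.6 on all arrays with a mean effect of -0.00.

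**Figure D1:**
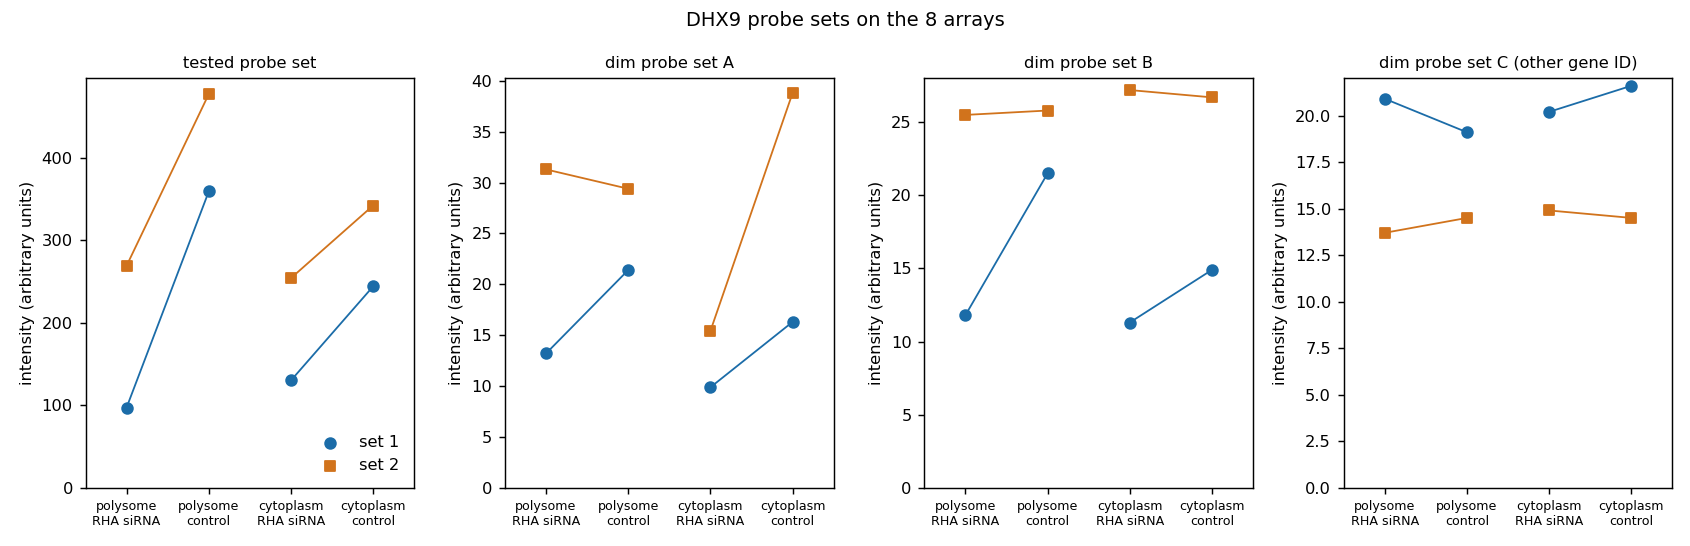
Intensity (arbitrary units, axis from 0) of the 4 DHX9 probe sets on the 8 arrays, with RHA siRNA left of control siRNA in each fraction and lines joining the arrays of a set. The tested probe set lies at 97.2 to 269 under RHA siRNA against 244 to 477 under control siRNA, and both lines of that probe set slope upward to the control in each fraction, while in set 2 probe set A in polysomes and probe set B in the cytoplasm do not.

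Over both fractions no family member passed the test. Of the 62 member probe sets 0 were called by limma at an adjusted p under 0.05 (0.00% of all tested probe sets were), and with the set as a block again 0 of 62 (0.00758% of all). At an unadjusted p under 0.05 limma found 1 member probe set, that of DHX9, where the share among all probe sets was 2.05%. With the block it found 3 of 62, against 12.0% of all. The median siRNA effect of the 38 genes was 0.15 (0.13 in set 1, 0.06 in set 2), beside 0.03 over all tested probe sets and over all genes. Of the 38 genes 27 lay above 0, beside 5442 of all 10106 genes, and 23 of 38 after quantile normalisation. In 4 of 4 within-set comparisons 3 member probe sets were below 0, against 8.99% of all, and 7 were above 0, against 9.81% of all. By genes these were 2 and 4 of 38, beside 9.76% and 10.4% of all genes.

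The 4 genes above 0 in all 4 comparisons were DDX42, DDX51, DDX54 and DHX30. DDX42, which works with the U2 snRNP in splicing, had 254 and 286 in RHA polysomes against 231 and 236 in control polysomes, and 243 and 258 in RHA cytoplasm against 132 and 206 in control cytoplasm. Its RHA arrays were above its control arrays in both fractions without overlap, and its effect over both fractions was 0.40 (0.51 in set 1, 0.30 in set 2). DDX51, a factor of large ribosomal subunit assembly, had an effect of 0.44 (0.37 and 0.50), and its arrays followed the set more than the siRNA. It had 49.2 and 28.0 in RHA polysomes against 45.2 and 20.4 in control polysomes. In the cytoplasm it had 68.9 and 28.3 under RHA siRNA against 44.6 and 19.4 under control siRNA. A second, dimmer probe set of DDX51 pointed down in the cytoplasm (-0.35), so the gene's direction depends on the probe set. DDX54, a nucleolar helicase, had an effect of 0.44 (0.76 and 0.11), and DHX30, which serves mitochondrial ribosome assembly, 0.20 (0.18 and 0.22). The cytoplasmic value of DDX54 in set 2 was only 0.01, and another of its tested probe sets had an effect of -0.12 over both fractions.

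The genes below 0 in all 4 comparisons were DHX9 and DHX57, whose role is less known. DHX57 had 197 and 131 in RHA polysomes against 244 and 142 in control polysomes. In the cytoplasm it had 182 and 83.1 under RHA siRNA against 224 and 125 under control siRNA. The groups overlapped in both fractions, and set 1 was brighter than set 2 in every group. Its effect was -0.33 over both fractions (-0.30 and -0.36), and its second tested probe set gave values above 0 in the cytoplasm (0.35). The third member probe set with 4 values below 0 was the dimmer one of DDX46, a splicing helicase of early spliceosome assembly. It had 199 and 219 in RHA polysomes against 271 and 317 in control polysomes, and 192 and 147 in RHA cytoplasm against 234 and 271 in control cytoplasm, and its RHA and control arrays did not overlap in either fraction.

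**Figure D2:**
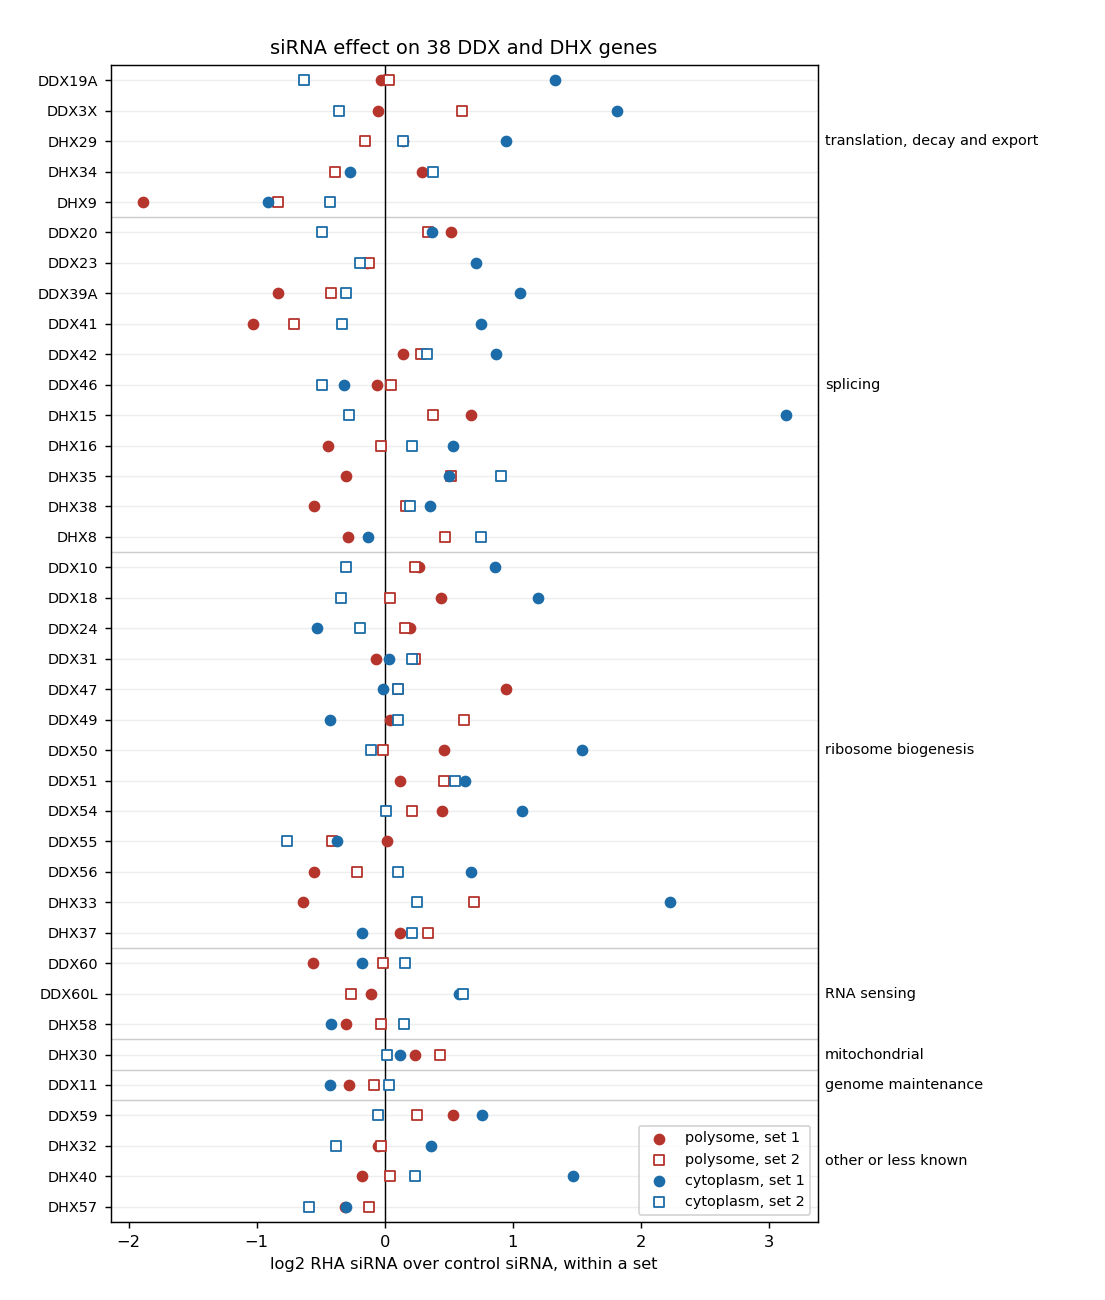
siRNA effect (log2 RHA over control siRNA) of each of the 38 genes within each set, in polysomal RNA (red) and cytoplasmic RNA (blue), with set 1 as filled circles and set 2 as open squares, grouped by role. DHX9 lies left of 0 at all 4 points, and the cytoplasmic points of set 1 reach 3.13 (DHX15) where those of set 2 stay at or below 0.91 (DHX35).

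By role, the helicases of ribosome assembly had a median of 0.27 over both fractions (0.37 in set 1, 0.10 in set 2). On average 11 of 13 genes were above 0, but only 4 of 13 in both sets. The splicing helicases had a median of 0.07 (0.10 and 0.05), with 8 of 11 above 0 on average and 4 of 11 in both sets. Of all 10106 genes 5442 were above 0 on average and 2839 in both sets. Among the 5 helicases of translation, decay and export DHX9 stood at -1.01, and DDX3X at 0.50 (0.88 and 0.12). DHX29 stood at 0.27 (0.55 and -0.01), DDX19A at 0.18 (0.65 and -0.30) and DHX34 at 0.00 (0.01 and -0.00). The RNA sensors stood at -0.15 (DHX58, with -0.36 and 0.06 in the sets), -0.15 (DDX60, with -0.37 and 0.07) and 0.21 (DDX60L, with 0.24 and 0.17). DHX58 (LGP2) is a regulator of cytosolic RNA sensing, and DDX60 is an interferon-induced helicase. The cohesion helicase DDX11, which acts on DNA, stood at -0.19 (-0.35 and -0.03).

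In polysomal RNA the 38 genes as a whole were centred on 0. The median effect was 0.02 (-0.05 in set 1, 0.05 in set 2), beside 0.01 over all tested probe sets and -0.00 over all genes. Of the 38 genes 20 lay above 0, beside 5022 of all 10106 genes. limma called 0 of 62 member probe sets (0.00% of all), and again 0 of 62 with the block (0.00%). At an unadjusted p under 0.05 it found 0 of 62 (0.519% of all), and with the block 2 of 62 (5.06% of all), those of DHX9 and DDX41. Set 1 and set 2 shared a sign for 25 of 38 genes, 13 above 0 and 12 below.

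After DHX9, the lowest polysomal values belonged to a pair of splicing-linked helicases. DDX41, which is found in spliceosomes and is also known as a sensor of DNA and cyclic dinucleotides, had 58.8 and 61.4 in RHA polysomes against 120 and 100 in control polysomes. These groups did not overlap, and the effect was -0.87 (-1.03 in set 1, -0.71 in set 2). In the cytoplasm the same probe set had 80.7 and 60.7 under RHA siRNA against 48.0 and 76.5 under control siRNA, with opposite signs in the sets (0.75 and -0.33). DDX39A, a helicase of mRNA export and splicing, had 144 and 178 in RHA polysomes against 256 and 239 in control polysomes, again without overlap, an effect of -0.63 (-0.83 and -0.42). Its second tested probe set, which is dimmer, had 66.0 and 38.2 in RHA polysomes against 121 and 30.1 in control polysomes, groups that overlapped, with opposite signs in the sets (-0.88 and 0.34). On the brighter probe set the cytoplasmic values of DDX39A were 267 and 138 under RHA siRNA against 129 and 169 under control siRNA, an overlap with opposite signs in the sets. The nucleolar helicase DDX56 followed at -0.38 (-0.55 and -0.22). In set 1 the excess of 3' over 5' control signal was 3.73 on the RHA array and 2.54 on the control array of the polysomes. In set 2 this excess was 3.82 and 4.15, and the differences were 1.19 in set 1 and -0.33 in set 2. Its part in the result was not tested.

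The highest polysomal values of one sign in both sets were those of DHX15, the helicase that takes apart the spent spliceosome, and DDX47, a factor of small ribosomal subunit assembly. DHX15 had 344 and 2124 in RHA polysomes against 216 and 1634 in control polysomes, so the distance between the sets exceeded that between the siRNAs. Its effect was 0.53 (0.67 and 0.38). DDX47 had 192 and 147 in RHA polysomes against 99.2 and 137 in control polysomes, without overlap, an effect of 0.53 (0.95 and 0.10). DDX20, a part of the SMN complex that assembles spliceosomal snRNPs, stood at 0.43 (0.52 and 0.34) and DHX30 at 0.33 (0.24 and 0.43), where its dimmer probe set stood at -0.22 (-0.95 and 0.50). By role the median was 0.23 in ribosome assembly (0.12 in set 1, 0.21 in set 2), with 11 of 13 above 0 and 8 in both sets. In splicing it was -0.01 (-0.29 and 0.17), with 5 of 11 above 0. Among the RNA sensors it was -0.18 (-0.30 and -0.03). All 3 sensors were below 0 in both sets, DDX60 by only -0.01 in set 2. Of all 10106 genes 5022 were above 0 on average. In both sets 2763 of all genes were above 0 and 2764 below 0.

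In cytoplasmic RNA the members were shifted upward under RHA siRNA in set 1 and not in set 2. The median effect was 0.28, from 0.52 in set 1 and 0.02 in set 2, beside 0.05 over all tested probe sets and 0.06 over all genes. Above 0 were 27 of 38 genes, beside 5674 of all 10106 genes, and 23 of 38 after quantile normalisation. In set 1, 42 of 62 member probe sets were above 0 (54.4% of all), in set 2 29 of 62 (49.3% of all). At least 2-fold up in set 1 were 16 of 62 member probe sets, or 9 genes, against 12.0% of all probe sets, and in set 2 0 of 62 against 2.34% of all. limma called 0 of 62 (0.00% of all), and with the block again 0 (0.00%). At an unadjusted p under 0.05 it found 0 of 62 (1.61% of all), and with the block 7 of 62 (12.0% of all).

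The upward shift of set 1 was taken against its cytoplasmic control array, the least typical of the 8. Low values on that array are part of the shift, so the counts below restate it. In set 1 that array was the lowest of its set for 33 of 62 member probe sets (36.3% of all probe sets), and in set 2 the cytoplasmic control array was the lowest for 21 of 62 (27.3% of all). The excess of 3' over 5' control signal was 2.98 on the RHA array and 4.09 on the control array of the cytoplasm in set 1, and 3.56 and 3.83 in set 2. Its part in the result was not tested. With the set as a block, and leaving out control array 1 of the cytoplasm, the median effect was 0.07, with 23 of 38 genes above 0. Without the block the median was -0.01 on leaving out RHA array 1 of the cytoplasm and 0.06 on leaving out control array 2. With the block these were 0.09 and 0.45, and 0.49 without RHA array 2. Leaving out either cytoplasmic array of set 1 removes the comparison within that set. These values therefore cannot show which of its arrays the shift came from. With the block, and leaving out control array 2 so that control array 1 is alone, limma called 6 member probe sets, all higher under RHA siRNA and read from DDX3X, DHX15, DHX33, DDX18 and DDX39A, against 4.36% of all probe sets.

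DHX15 and DDX3X had the widest gaps between the sets. DHX15 had 565 and 1258 in RHA cytoplasm against 64.6 and 1522 in control cytoplasm, which gave 3.13 in set 1 and -0.28 in set 2. A dimmer DHX15 probe set repeated the opposite signs with 78.0 and 120 under RHA siRNA against 24.8 and 168 under control siRNA. DDX3X, which promotes the translation of mRNAs with structured leaders, had 1247 and 521 under RHA siRNA against 356 and 670 under control siRNA, or 1.81 and -0.36. For both genes the control array of set 1 was the lowest of the 4 cytoplasmic arrays. DDX50, a nucleolar helicase, stood at 1.54 in set 1 and -0.11 in set 2, and DDX18, also nucleolar, at 1.20 and -0.34.

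**Figure D3:**
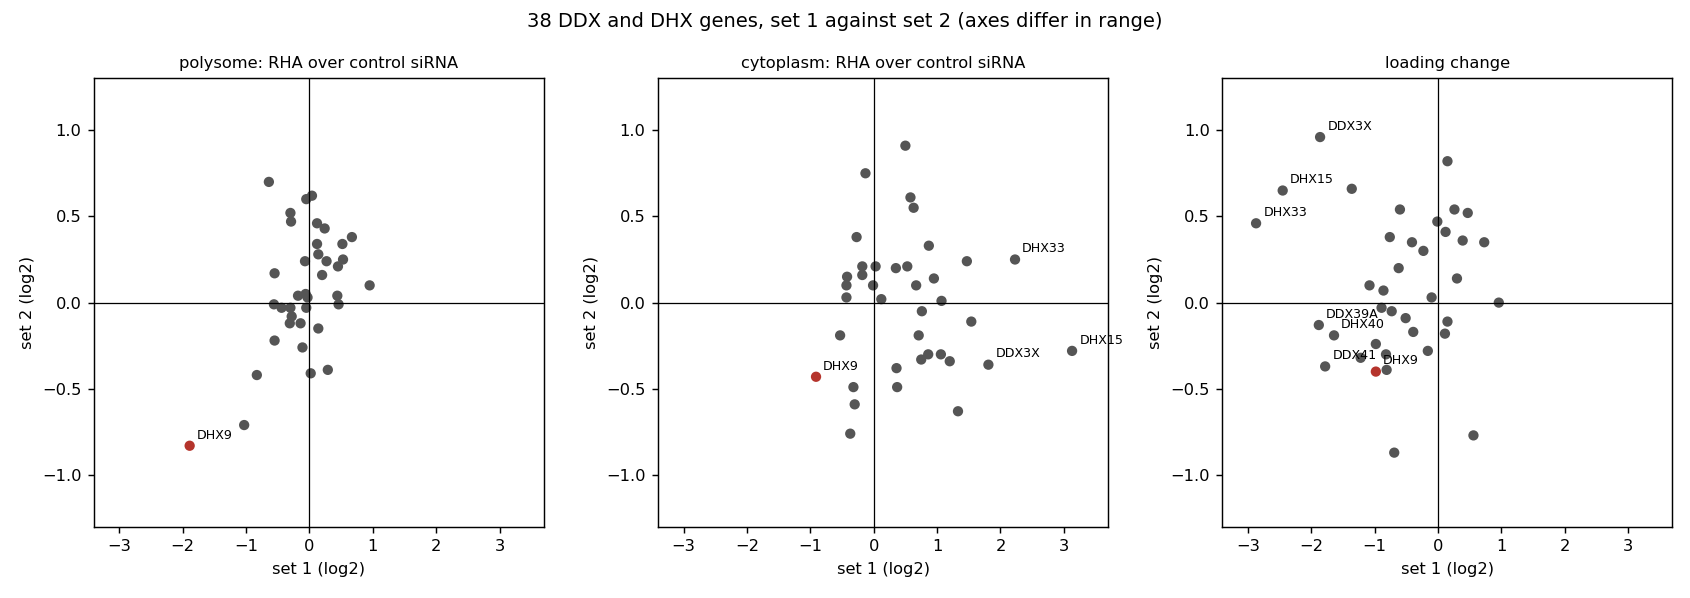
Each of the 38 genes by its log2 value in set 1 (x axis) and set 2 (y axis, narrower range) for the siRNA effect in polysomal RNA (left), in cytoplasmic RNA (middle) and for the loading change (right), with DHX9 in red. DHX9 lies at the lower left in all 3 panels, and in the cytoplasm DHX15, DHX33 and DDX3X lie beyond 1.6 in set 1 but between -0.36 and 0.25 in set 2.

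A smaller group of members had one sign in both sets in the cytoplasm. Of the 38 genes 18 did so, 13 above 0 and 5 below. DHX33, a helicase of ribosomal RNA transcription and translation initiation, had 178 and 49.5 under RHA siRNA against 38.0 and 41.7 under control siRNA, an effect of 1.24 that came mostly from set 1 (2.23 and 0.25). DHX40, whose role is less known, had 788 and 902 under RHA siRNA against 286 and 767 under control siRNA, an effect of 0.85 (1.47 and 0.24) without overlap of the groups. A second DHX40 probe set of nearly the same brightness had 683 and 378 under RHA siRNA against 267 and 589 under control siRNA. There the groups overlapped and the sets had opposite signs (1.35 and -0.64), so the shared sign of DHX40 depends on the probe set. DDX60L, a relative of DDX60, had 56.7 and 27.8 under RHA siRNA against 37.8 and 18.2 under control siRNA. Its effect was of like size in the sets (0.58 and 0.61), while its arrays overlapped, set 1 being brighter than set 2 in every group. DHX35, a spliceosomal helicase, stood at 0.71 (0.50 and 0.91) and DHX29, which helps the scanning ribosome through structured leaders, at 0.55 (0.95 and 0.14).

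Below 0 in both sets in the cytoplasm were DHX9, DDX55, DHX57, DDX46 and DDX24. DDX55, a factor of large ribosomal subunit assembly, had 49.7 and 26.8 under RHA siRNA against 64.2 and 45.4 under control siRNA, an effect of -0.56 (-0.37 and -0.76). DDX46 had 525 and 378 under RHA siRNA against 656 and 531 under control siRNA, groups that did not overlap, and an effect of -0.41 (-0.32 and -0.49). DDX24, a nucleolar helicase, stood at -0.36 (-0.53 and -0.19). DDX24 carried 2 gene IDs in the annotation, and its probe sets differed in sign. By role the cytoplasmic median was 0.31 in splicing, with 0.53 in set 1 and -0.19 in set 2. In ribosome assembly it was 0.28, with 0.63 and 0.10.

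Polysome loading under RHA siRNA was divided. The median over the 38 genes was 0.08 (-0.05 in set 1, 0.23 in set 2), beside 0.02 over all tested probe sets and over all genes, with 22 of 38 above 0. In both sets 19 of 62 member probe sets were above 0 against 32.0% of all, and 14 of 38 genes against 32.3% of all genes. DDX55 led with 0.59 (0.37 and 0.80), from 64.4 and 46.7 in RHA polysomes against 49.7 and 26.8 in RHA cytoplasm. DDX46 followed with 0.54 (0.52 and 0.56), from 752 and 559 in RHA polysomes against 525 and 378 in RHA cytoplasm, without overlap. DDX60L was lowest at -0.53 (-0.52 and -0.55), from 39.6 and 19.0 in RHA polysomes against 56.7 and 27.8 in RHA cytoplasm. limma called 0 of 62 members (0.00% of all), and again 0 with the block (0.00%). At an unadjusted p under 0.05 it found 0 of 62 (0.265% of all), and with the block 3 of 62 (4.46% of all).

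Under control siRNA the loading of most members was above 0 in both sets. This held for 32 of 62 member probe sets, or 51.6%, against 30.5% of all probe sets, and for 26 of 38 genes, or 68.4%, against 35.4% of all genes. The excess of 3' over 5' control signal in set 1 was 2.54 on the control polysome array and 4.09 on the control cytoplasm array, and in set 2 it was 4.15 and 3.83; its part in the result was not tested. The median was 0.29 (0.47 in set 1, 0.21 in set 2), beside 0.07 over all probe sets and 0.08 over all genes. Above 0 were 32 of 38 genes, beside 6245 of all 10106 genes, and 27 of 38 after quantile normalisation. The members were brighter than the tested probe sets as a whole. Under the stricter brightness filter the median loading over all probe sets was 0.14, against 0.07 here. The part of intensity in the difference between members and all genes was not tested. limma called 0 of 62 (0.00% of all), with the block 0 (0.00%), at an unadjusted p under 0.05 0 (0.208% of all) and at an unadjusted p with the block 4 of 62 (4.12% of all). Leaving out control array 1 of the cytoplasm, and with the block, the median was 0.20 with 26 of 38 above 0. Without control array 1 of the polysomes it was 0.13. With the block, and leaving out control array 2, limma called 2 members, both DDX3X probe sets, against 2.84% of all.

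The splicing helicases had a median loading of 0.52 under control siRNA (0.77 and 0.26), with all 11 above 0 and 10 of them in both sets. Of all 10106 genes 6245 were above 0 and 3581 in both sets. DDX41 had 120 and 100 in control polysomes against 48.0 and 76.5 in control cytoplasm, without overlap, a loading of 0.85 (1.32 and 0.39). DDX39A had 256 and 239 in control polysomes against 129 and 169 in control cytoplasm, also without overlap, a loading of 0.74 (0.99 and 0.49), while its second probe set had opposite signs in the sets (1.97 and -0.26). DDX23, a helicase of spliceosome activation, stood at 0.58 (0.77 and 0.39), from 365 and 301 in control polysomes against 214 and 230 in control cytoplasm. DHX16 and DHX38, which act in the catalytic steps of splicing, stood at 0.52 (0.68 and 0.36) and 0.52 (0.78 and 0.26). The translation, decay and export helicases had a median of 0.52 as well (0.56 and 0.23), with DHX9 at 0.52 (0.56 and 0.48). In ribosome assembly the median was 0.21 (0.09 and 0.07), with 9 of 13 above 0. DHX33 reached 1.06 there but from set 1 alone (2.10 and 0.02), and DDX49 and DHX37 were below 0 in both sets at -0.37 (-0.31 and -0.44) and -0.27 (-0.38 and -0.16).

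**Figure D4:**
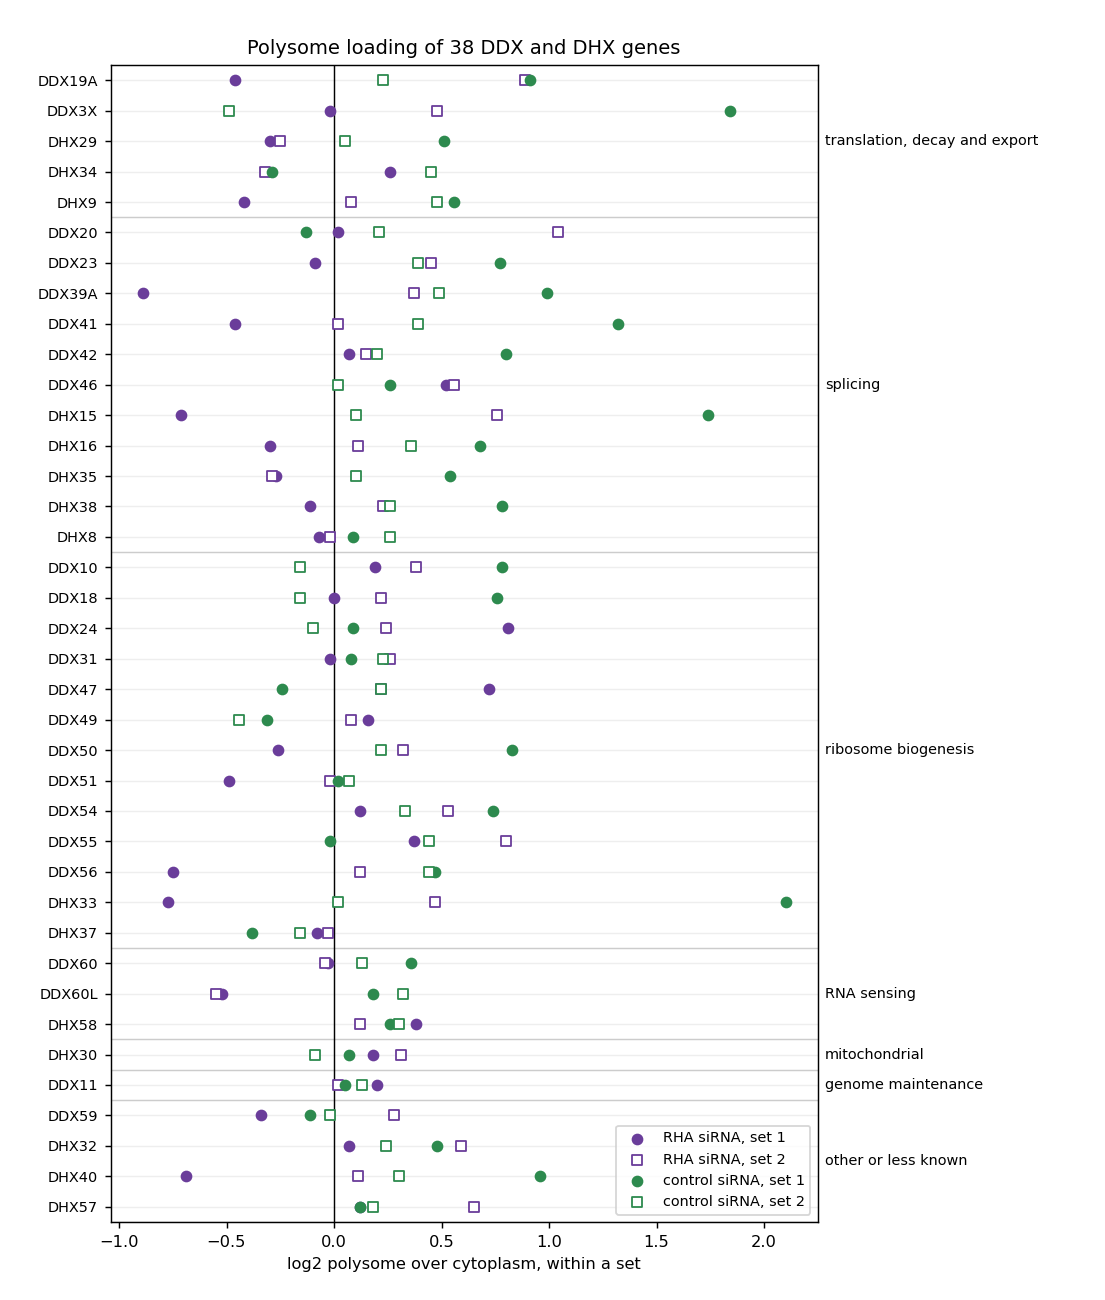
Polysome loading (log2 polysomal over cytoplasmic RNA) of each of the 38 genes within each set, under RHA siRNA (purple) and control siRNA (green), with set 1 as filled circles and set 2 as open squares, grouped by role. Under control siRNA 26 genes have both points right of 0, against 14 genes under RHA siRNA.

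Averaged over both siRNAs the loading had a median of 0.24 (0.17 in set 1, 0.21 in set 2), beside 0.07 over all probe sets and over all genes. Above 0 were 33 of 38 genes, beside 6383 of all 10106 genes. Under the stricter brightness filter the median over all probe sets was 0.13, and the part of intensity was not tested here either. After quantile normalisation 26 of 38 were above 0, and the median of the members fell to 0.10. In all 4 within-set comparisons of polysome over cytoplasm 9 of 62 member probe sets were above 0 (8.67% of all) and 2 below 0 (6.27% of all). By genes these were 7 of 38, against 9.46% of all genes, and 1 of 38, against 5.64%. The 7 genes were DDX11, DDX42, DDX46, DDX54, DHX32, DHX57 and DHX58, and the gene below 0 was DHX37, a factor of small ribosomal subunit assembly. DHX32, whose role is less known, had 456 and 511 in RHA polysomes and 473 and 522 in control polysomes, against 436 and 341 in RHA cytoplasm and 339 and 443 in control cytoplasm. All 4 of its polysomal arrays lay above all 4 cytoplasmic arrays, a loading of 0.34 (0.27 and 0.41). DDX46 had the same loading of 0.34 (0.39 and 0.29), but its arrays overlapped, the control cytoplasm array of set 1 (656) lying above both polysomal arrays of set 2 (559 and 540). limma called 0 of 62 members (0.00% of all), with the block 0 (0.00%), at an unadjusted p under 0.05 0 (0.224% of all) and at an unadjusted p with the block 2 of 62 (4.02% of all).

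The loading change, which shares its control arrays with the comparisons above, had a median of -0.25 over the 38 genes (-0.61 in set 1, 0.05 in set 2), beside -0.02 over all probe sets and -0.03 over all genes. In set 1 the medians were -0.06 over all probe sets and -0.08 over all genes, and in set 2 they were 0.08 and 0.05. The members thus lay below all genes in set 1 and level with them in set 2. Above 0 were 11 of 38 genes over both sets (15 after quantile normalisation) and 21 in set 2 alone. Of all 10106 genes these counts were 4731 over both sets and 5462 in set 2 alone. In both sets 18 of 62 member probe sets were below 0 (24.0% of all) and 12 above 0 (26.1% of all), which by genes were 14 of 38, against 28.2% of all genes, and 8 of 38, against 26.9%. limma called 0 of 62 (0.00% of all), with the block 0 (0.00%), at an unadjusted p under 0.05 0 (0.174% of all) and at an unadjusted p with the block 3 of 62 (3.97% of all). Leaving out control array 1 of the cytoplasm, and with the block, the median was -0.12, with 18 of 38 above 0. Without the block it was -0.00 on leaving out RHA array 1 of the cytoplasm, -0.07 without control array 1 of the polysomes and -0.42 without control array 2 of the polysomes. With the block it was -0.05 without RHA array 1 of the cytoplasm, -0.40 without RHA array 2 and -0.50 without control array 2.

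DDX41 had the lowest loading change of one sign in both sets, at -1.08 (-1.78 and -0.37), followed by DDX39A at -1.01 (-1.88 and -0.13) and DHX40 at -0.92 (-1.64 and -0.19). In each of these the change in set 2 was small beside that in set 1, and second probe sets of DDX39A (0.47) and DHX40 (0.69) were above 0 in set 2. DDX60L, at -0.78, had the more even pair of values (-0.69 and -0.87), and DDX56 stood at -0.77 (-1.22 and -0.32). DHX9 itself stood at -0.69 (-0.98 and -0.40) with an SE of 0.84, the 8th lowest of the 38 genes. At the other end DDX24 stood at 0.54 (0.73 and 0.35), DDX49 at 0.49 (0.47 and 0.52), DDX20 at 0.49 (0.15 and 0.82), DDX46 at 0.40 (0.26 and 0.54) and DDX55 at 0.37 (0.39 and 0.36). Second probe sets of DDX24 (-0.18) and DDX49 (-0.32) had the opposite sign. By role the median was -0.46 in splicing, with -0.86 in set 1 and -0.05 in set 2. There 9 of 11 genes were below 0 on average and 7 of them in both sets. In translation, decay and export it was -0.45 (-0.98 and -0.30), with all 5 genes below 0 on average but 2 of 5 in both sets. In ribosome assembly it was -0.03 (-0.51 and 0.20), with 8 of 13 below 0. The set 1 values include the cytoplasmic control array described above as least like the rest.

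Probe sets of the same gene often disagreed, which limits what a single gene's value can carry. Of the 38 genes 20 had 1 tested probe set and 18 had several. Over both fractions all probe sets of a gene shared a sign in 7 of these 18 genes, in polysomal RNA in 11, in cytoplasmic RNA in 10, for the loading change in 8 and for the loading over both siRNAs in 13. The 11 genes whose probe sets disagreed over both fractions were DDX10, DDX11, DDX19A, DDX20, DDX24, DDX39A, DDX49, DDX51, DDX54, DHX38 and DHX57. Of the 62 tested probe sets 9 had a suffix for probes shared between transcripts, the tested DHX9 probe set among them. DDX3X and DDX19A have near-identical relatives, and the labels do not say which copies such probes read in this species.

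Helicases whose symbol does not begin with DDX or DHX were not tested against the members, and their values are given side by side. Of the 13 such genes that were annotated all 13 were tested, 0 were called, and 8 lay above 0 over both fractions. At an unadjusted p under 0.05 with the block limma found 4 of the 13 (AQR, IFIH1, SNRNP200 and SUPV3L1), where it found 2 of the 38 members (DDX51 and DHX9) and 12.4% of all genes. Their median was 0.08 over both fractions (0.32 and 0.01), and 0.11 in the cytoplasm (0.42 and -0.17), where that of the members was 0.28 (0.52 and 0.02). SUPV3L1, a mitochondrial RNA helicase, had 156 and 217 in RHA polysomes against 117 and 150 in control polysomes, and 222 and 239 in RHA cytoplasm against 123 and 146 in control cytoplasm. Its effect over both fractions was 0.63, of like size in the sets (0.63 and 0.62), and its RHA and control arrays did not overlap in either fraction. AQR, an intron-binding helicase, stood at 0.69 (0.40 and 0.97) and SNRNP200, the U5 snRNP helicase, at 0.49 (0.79 and 0.19). IFIH1 (MDA5), a cytosolic sensor of long double-stranded RNA, stood at -0.66 (-0.34 and -0.98), with 164 and 96.4 in RHA polysomes against 202 and 117 in control polysomes and 103 and 37.6 in RHA cytoplasm against 134 and 120 in control cytoplasm. For the loading change YTHDC2, a helicase with a domain that reads methylated adenosine, stood at 0.90 (1.17 and 0.62), and under control siRNA 11 of the 13 had a loading above 0. The 13 genes had a median loading of 0.30 under control siRNA, where that of the members was 0.29.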

How the data were processed

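The deposited values were linear intensity values, 1 per probe set, taken as normalised by the authors because the arrays share similar medians. GCOS and RMA are named in the submitters' processing notes, without versions. The intensities were put on the log2 scale. Genes came from the platform's probe annotation, and 24969 of 52865 probe sets carried 1 symbol. Probe sets were tested where their mean log2 value over the 8 arrays exceeded 4.32, the brighter 50% of the 52766 that are not controls.

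Two-sided tests with limma 3.58.1 (R 4.3.3; lmFit, eBayes) used 4 group means over all 8 arrays and 7 contrasts, with p-values adjusted by Benjamini-Hochberg over 26383 probe sets, called under 0.05. The code was tested on simulated data. Groups and set numbers came from the sample titles. The labels state no pairing, so the set entered as a block only as an alternative. Arrays have no read depth, and their number limits the precision. Members, role groups and the list of other helicases were chosen with earlier results of these data known. Named were DHX9, up to 8 genes per direction and contrast with the largest mean change of one sign in both sets, up to 4 other helicases, and genes whose probe sets disagreed. DDX3X, DHX15, DDX50 and DDX18 in the cytoplasm, and members named by role, were chosen after their values were seen. Alternatives were the block, other filters, quantile normalisation, log2 of the value plus 16, an intensity trend, each set alone, means over probe sets, no shared-probe suffixes and each array left out.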

Additional observations from a re-analysis of the deposited data

Results flagged for a closer look

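Genes are given here whose siRNA effect pointed one way in polysomal RNA and the other way in cytoplasmic RNA, in both sets. No share over all genes stands beside these lists, so they do not set the members apart. DDX24 was above 0 in polysomes and below 0 in the cytoplasm, with a loading change of 0.54 (-0.18 on its second probe set). DDX56 (-0.77), DDX60L (-0.78) and DHX16 (-0.61) were below 0 in polysomes and above 0 in the cytoplasm. Other genes had loading of opposite sign under RHA and control siRNA in both sets. DDX49 was above 0 under RHA siRNA and below 0 under control siRNA, a change of 0.49 (-0.32 on its second probe set). Below 0 under RHA siRNA and above 0 under control siRNA were DDX51 (-0.30), DDX60 (-0.28), DDX60L (-0.78), DHX29 (-0.56), DHX35 (-0.60) and DHX8 (-0.22). The loading of DDX51 under control siRNA was near 0 (0.04). Its second probe set had -0.70 there and a loading change of 0.45, so its place in this list depends on the probe set. The difference itself is the loading change, which did not pass in limma for any of these genes (adjusted p 1.00 for each).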

How the results depend on the processing

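The counts of called members stayed at 0 in every comparison under the other filters, quantile normalisation, log2 of the value plus 16, the intensity trend and the replicate block, which changed no call. Leaving out 1 array at a time gave 0 to 6 calls in the cytoplasm, 0 to 4 over both fractions and 0 to 2 for loading under control siRNA, the upper ends with the replicate block and control array 2 of the cytoplasm left out. The effect on DHX9 over both fractions ranged from -1.38 to -0.65 on leaving out 1 array and passed in that same setting (-1.13). It ranged from -2.09 to -0.62 in polysomes and from -1.15 to -0.19 in the cytoplasm. DHX9 reversed for loading under RHA siRNA in set 2 alone (0.08) and on leaving out an array (-0.90 to 0.56, and 0.25 with the replicate block and without RHA polysome array 1), for the loading change (-1.42 to 0.04) and for loading over both siRNAs (-0.19 to 0.54, and -0.04 with the replicate block and without RHA polysome array 2).

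On leaving out 1 array the member median ranged from -0.27 to 0.18 in polysomes (-0.09 with the replicate block and without RHA array 2), -0.01 to 0.49 in the cytoplasm, -0.06 to 0.24 over both fractions, -0.50 to 0.00 for the loading change, -0.19 to 0.27 for loading under RHA siRNA, 0.13 to 0.42 under control siRNA and 0.11 to 0.29 for loading over both siRNAs (with the replicate block, 0.16 without RHA cytoplasm array 2 and 0.13 without control cytoplasm array 1). Over both fractions it was 0.09 after quantile normalisation and 0.06 in set 2 alone. For loading under control siRNA it was 0.47 in set 1 alone. For loading over both siRNAs it was 0.26 in the brightest 25% and without shared-probe suffixes, 0.10 after quantile normalisation, 0.17 in set 1, 0.21 in set 2 and 0.19 as a mean over tested probe sets. The median over all probe sets in the brightest 25% was 0.13. Counts of genes above 0, an alternative chosen after seeing the data, ranged from 12 to 24 in polysomes, 16 to 29 over both fractions and 8 to 19 for the loading change (with the replicate block, 17 without RHA and 18 without control cytoplasm array 1), which gave 21 in set 2 alone. The cause was not tested. DHX9 has no value without shared-probe suffixes. Of 6426 values of single genes under these alternatives, 1147 moved by more than the spread between arrays.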
